A study of Mus musculus with 7 samples.

Results

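Non-specific IgG recovered 349 peaks from myeloid precursors (MPs), the bone marrow cells from which osteoclasts form. These peaks are all of the list of the IgG library, among 239001 peaks in the lists of 7 ChIP-Seq libraries. MPs were obtained from 4 to 6 week old C57BLACK6 mice by flushing bone marrow and growing the cells for 3 days on plastic with 50 ng/ml CSF1. PU.1 and MITF were each precipitated with 5 µg of antibody from these MPs (the PU.1 MP and MITF MP lists) and from cells that had also received 100 ng/ml RANKL for 36 or 72 h (the 36 h and 72 h lists). The IgG was pre-immune and affinity purified, and it was used on MPs only, so no RANKL-treated library has a control of its own. Each condition was 1 library, and how many mice were pooled is not given in the sources used here.

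In ChIP-Seq, sequenced fragments (tags) pile up where an antibody holds a protein on DNA. A non-specific IgG holds no chosen protein, and its library shows where tags pile up without one. Regions known for this in mouse libraries are tandem satellite DNA near centromeres, simple repeats, ribosomal and mitochondrial DNA, and sequences of which the assembly holds fewer copies than the chromosomes do. PU.1, an Ets factor, binds sites with a GGAA core, and MITF, a basic helix-loop-helix factor, binds E-boxes. The peaks were therefore described by their height, their place, their sequence and their overlap with PU.1 and MITF peaks. All intervals below are 95% intervals for counting error only, since no library had a replicate, and neighbouring or similar peaks are not independent.

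Of the 349 peaks, 271 (77.7%) lie on chromosomes 1 to 19, X, Y or M and could be read in the genome (mm9). The other 78 lie on _random sequences, which are assembled but not placed, and no sequence was read for them, so statements on sequence hold for the 271 only. By alignment of these peaks to each other (at least 50 bp), 118 of the 271 fell into 4 families of 10 or more similar peaks, named A to D by the height of their highest peak. The first sequences shown are the 2 highest peaks of family A and the member with the clearest tandem repeat, on the plus strand, at chr9:35112836-35113010, chr2:98502833-98503007 and chr9:3025444-3025618. Capitals mark 12-base words that at least 4 other IgG peaks hold on either strand.

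chr9-1: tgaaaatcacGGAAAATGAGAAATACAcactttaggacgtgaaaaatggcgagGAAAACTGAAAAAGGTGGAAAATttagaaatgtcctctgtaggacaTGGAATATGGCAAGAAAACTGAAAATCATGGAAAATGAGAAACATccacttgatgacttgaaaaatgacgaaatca
chr2-1: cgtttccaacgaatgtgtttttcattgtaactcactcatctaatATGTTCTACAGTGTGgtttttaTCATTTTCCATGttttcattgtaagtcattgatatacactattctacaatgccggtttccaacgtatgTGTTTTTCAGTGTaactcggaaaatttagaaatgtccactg
chr9-3: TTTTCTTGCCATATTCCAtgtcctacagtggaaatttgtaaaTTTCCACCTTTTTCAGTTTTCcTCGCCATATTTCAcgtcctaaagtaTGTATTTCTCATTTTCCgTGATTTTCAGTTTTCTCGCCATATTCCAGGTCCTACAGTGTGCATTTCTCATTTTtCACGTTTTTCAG

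The highest peak of family B, at chr17:4626413-4626587, is shown because it consists almost entirely of a 5-base unit. Capitals have the same meaning.

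chr17-1: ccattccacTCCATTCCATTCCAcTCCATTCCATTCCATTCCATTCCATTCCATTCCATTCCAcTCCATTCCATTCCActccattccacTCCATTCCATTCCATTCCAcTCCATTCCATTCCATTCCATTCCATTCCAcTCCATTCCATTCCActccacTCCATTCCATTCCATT

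The IgG peaks were few and mostly low, with a small number of very high ones. The deposited score of each peak was a whole multiple of 3.205, the value of 1 tag in this library, which gives the tags per peak. Peaks held from 7 to 217 tags, with a median of 10 and quartiles of 7 and 17, and 5781 tags in all. The lowest value, 7 tags, was held by 102 peaks (29.2%). The 10 highest peaks together held 1371 tags, or 23.7% of all tags in IgG peaks. The highest peaks, chr9-1 (217 tags, exact Poisson interval 189 to 248) and chr2-1 (213 tags), scored 695.4 and 682.6. No peak of the PU.1 MP list scored above 414.5 and none of the MITF MP list above 136.1, so the top of the IgG list lies above both on the common scale. In recovered tags the highest PU.1 MP peak held more, 243, and the highest MITF MP peak fewer, 131. The IgG library was also the smallest. Its scale implies 3120000 tags in all, against 5860000 for PU.1 MP and 9630000 for MITF MP. Its lowest score, 22.4, is 2.2 times the lowest of the PU.1 MP list (10.2), so a region with fewer than 7 IgG tags is not in the list, even where its rate would have sufficed in the other lists.

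Of the 10 highest peaks, 6 belonged to family A and 1 to family B, and 3 lay on chrUn_random. The chr2 pair, chr2-1 and chr2-2 (158 tags), lies in the predicted genes Gm10801 and Gm10800, and Lrrc4c, which encodes a synaptic adhesion protein, is the nearest RefSeq gene by the authors' annotation. The chr9 peaks chr9-2 (127 tags) and chr9-3 (95 tags) lie 114 and 25530 bp from the first assembled base of chromosome 9, where Mir101c, a microRNA gene, is nearest. The peak chr4-1 (110 tags) lies in an intron of Cdk5rap2, a centrosome protein gene, 25317 bp from its TSS. The peak chr9-1 lies between genes, with 4933422A05Rik nearest, and chr17-1 (74 tags), also between genes, is nearest to 4930517M08Rik. The 3 peaks on chrUn_random held 145, 120 and 112 tags and were all nearest to the RefSeq transcript NM_009268.

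The 10 highest peaks were largely absent from the PU.1 and MITF lists. No PU.1 36 h, PU.1 72 h, MITF MP or MITF 72 h peak lay within 10 kb of any of them. The PU.1 MP list had 1 peak in these windows, a peak of 9 tags that lay 6547 bp from chr17-1. The MITF 36 h list had a peak of 30 tags 3723 bp from chrUn_random-2 and 4487 bp from chrUn_random-1, and a peak of 17 tags 5549 bp from chr9-3.

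**Figure D1:**
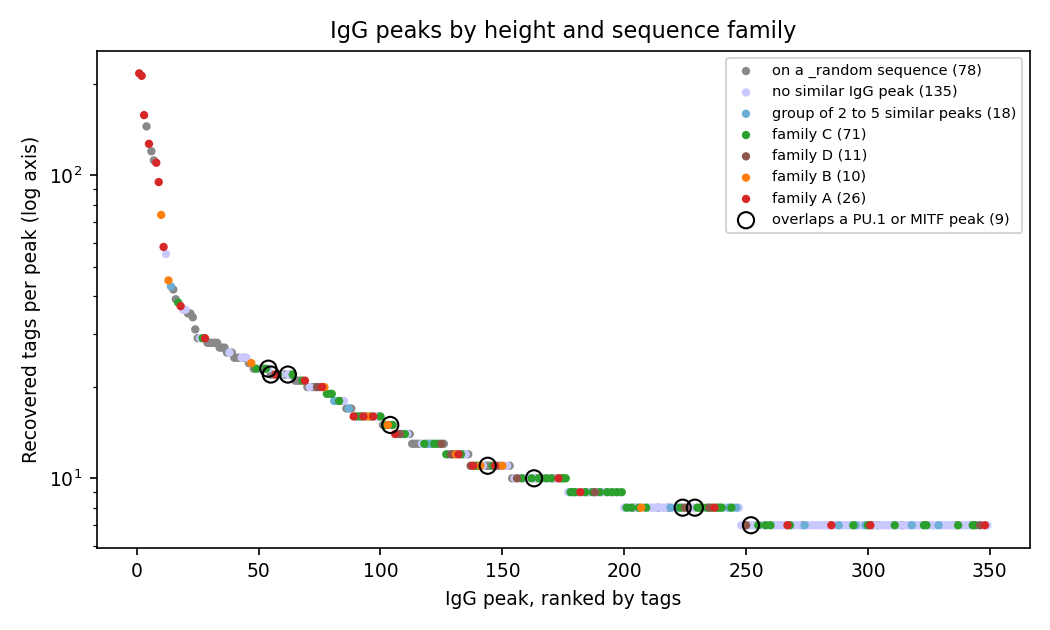
Recovered tags of each of the 349 IgG peaks on a log axis, ranked from the highest, with 1 point per peak colored by sequence family and rings on the 9 peaks that overlap a PU.1 or MITF peak. Family A (26 peaks) and peaks on _random sequences (78) take most of the top ranks, family C (71) lies at 38 tags or lower, and the highest ringed peak has 23 tags.

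Family A held 26 peaks on 12 chromosomes, 9.59% of the 271 (interval 6.36 to 13.7%), but 1258 tags, 21.8% of all tags in IgG peaks. Its members held from 7 to 217 tags with a median of 16. They were rich in A and T, with a median GC content of 36.3%. The 2-kb window around chr9-3 matched itself at a shift of 234 bases in 77.9% of positions, which is the known unit length of the mouse major satellite, the tandem repeat of pericentromeric heterochromatin. Only 3 of the 26 matched themselves best at that shift, the other two in 38 and 38.3% of positions, and 7 of the 26 reached 40% at any shift. The 4 members at the start of chromosome 11 (9 to 22 tags) and the 3 at the start of chromosome 4 (8 to 14 tags) matched themselves best at shifts of 58, 59 or 117 bases, in 36.6 to 54.5% of positions. The word GAAAATGAGAAA occurred in 17 of the 26, in 5 of 76165 PU.1 MP peaks and in 0 of 5402 MITF MP peaks. It was chosen for its number in IgG peaks, so these counts are a description, and the genome holds 4940 copies of it. Within 500 kb of the first or last assembled base of a chromosome lay 9 of the 26.

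Family B held 10 peaks on 8 chromosomes with 8 to 74 tags, and all 10 contained a perfect simple repeat of at least 20 bp. The word CCATTCCATTCC occurred in each of the 10, in 1 PU.1 MP peak and in 0 MITF MP peaks. It was chosen in the same way, and the genome holds 1255 copies of it. Members of family B lie near genes of unrelated kinds, such as Ano2, a chloride channel gene (45 tags), Itga11, an integrin gene (20 tags), and Marcks, a protein kinase C substrate gene (15 tags).

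Family C was the largest family and had the lowest median. It held 71 peaks (26.2%, interval 21.1 to 31.9%) on 20 chromosomes, with a median of 9 tags and at most 38. Its peaks were joined by 285 matching pairs, and these matched over a short stretch (median alignment 69 bp at 83.5% identity). Not every 2 members match, so no single stretch is shown to be common to all 71. In the median peak 2.07% of the 31-base words occurred more than once in the genome. The 12-base word shared by the most IgG peaks was held by 22 IgG peaks (8.12%), 17 of them in family C, against 0.0657% of PU.1 MP peaks and 0.0185% of MITF MP peaks. The next such word was held by 20 IgG peaks (7.38%), 29 PU.1 MP peaks (0.0381%) and no MITF MP peak. Another was held by 11 IgG peaks, all in family C, and by 1 PU.1 MP peak. The words were chosen for their number in IgG peaks, so these shares are a description, and the genome as a whole holds 13350, 13471 and 671 copies of them. Centers of 5 IgG peaks (1.86%, interval 0.606 to 4.28%) lay in small genes annotated as misc_RNA, 4 of them from family C, against 4 of 76165 PU.1 MP peaks (0.00525%).

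Family D held 11 peaks with 7 to 20 tags, low GC content (median 35.4%) and words that recur in the genome. The most frequent 31-base word of each peak had from 3 to 15165 copies, with a median of 110. A further 18 peaks fell into groups of 2 to 5, and 135 (49.8%) had no similar peak in the list. These 135 held a median of 7 tags, the lowest value in the list.

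Sequence that occurs more than once in the genome was far more frequent in IgG peaks than in PU.1 or MITF peaks of the same cells. At least one 31-base word was repeated in 57.2% of IgG peaks (155 of 271, interval 51.1 to 63.2%), in 11.3% of PU.1 MP peaks (difference 45.9 points, Newcombe interval 39.9 to 51.6) and in 9.07% of MITF MP peaks. More than 50% of the words were repeated in 8.49% of IgG peaks, 1.27% of PU.1 MP peaks (difference 7.22 points, interval 4.45 to 11.1) and 0.611% of MITF MP peaks (difference 7.88 points, interval 5.10 to 11.8). A perfect repeat of a unit of 1 to 6 bases reached 20 bp in 7.38% of IgG peaks, 1.64% of PU.1 MP peaks and 1.50% of MITF MP peaks. Of the 20 IgG peaks with such a repeat, 10 had a 5-base unit. Median GC content was 42.9% in IgG peaks and 47.0% in both other lists, and 37.3% of IgG peaks but 13.7% of PU.1 MP peaks lay under 40% (difference 23.6 points, interval 18.0 to 29.5). IgG peaks were read over 175 bases and the other peaks over 151. In the central 151 bases of the IgG peaks, 55.7% held a repeated word and in 8.12% more than 50% of the words were repeated.

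A PU.1 hexamer, GAGGAA, was less frequent in IgG peaks than in the other lists of MPs. In the central 151 bases, it was found on either strand in 8.86% of IgG peaks (24 of 271, interval 5.76 to 12.9%), 55.0% of PU.1 MP peaks and 67.3% of MITF MP peaks. The longer GAGGAAGT, which contains it, was found in 1 IgG peak (0.369%, interval 0.00934 to 2.04%), 22.1% of PU.1 MP peaks and 33.7% of MITF MP peaks. The E-box CACGTG was found in 1.85% of IgG peaks, 2.45% of PU.1 MP peaks and 2.30% of MITF MP peaks, and the interval of the difference between IgG and MITF MP (-1.59 to 1.98 points) includes 0.

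**Figure D2:**
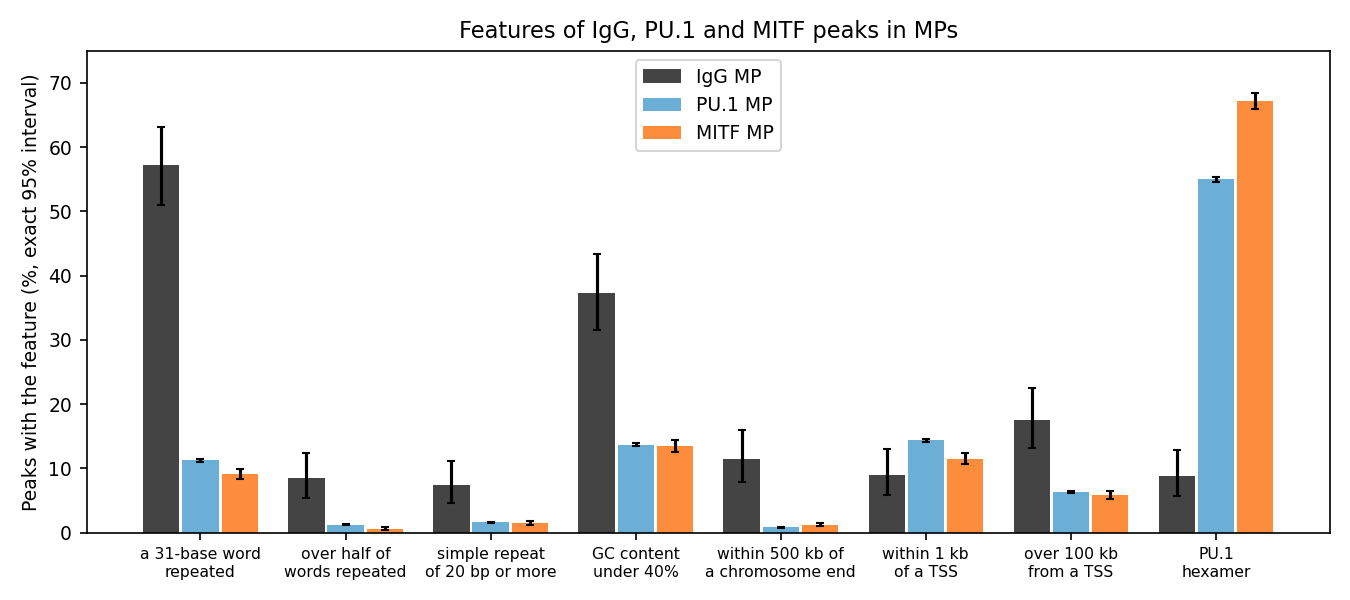
Percent of the peaks of the IgG MP (black), PU.1 MP (blue) and MITF MP (orange) lists that have each feature, with exact 95% intervals as error bars; the PU.1 hexamer is GAGGAA on either strand in the central 151 bases. IgG peaks lead for repeated words (57.2%), low GC content (37.3%) and nearness to a chromosome end (11.5%) and trail for the hexamer (8.86%).

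Unplaced sequence held a large part of the IgG list. On chrUn_random lay 73 peaks (20.9%, interval 16.8 to 25.6%) with 1665 tags, 28.8% of the total. The same sequence held 27 PU.1 MP peaks (0.0354%), 7 MITF MP peaks (0.129%) and 1 MITF 72 h peak, and at most 0.791% of any list (28 peaks, MITF 36 h). The smallest difference from IgG was thus 20.1 points (interval 16.2 to 24.7). These peaks lie close together, and with 1 peak per cluster the share was 6.25%, while among peaks of at least 2 times the lowest score it was 40.2%. A further 82 peak numbers on chrUn_random are not used in the IgG list. The PU.1 MP, 36 h and 72 h lists leave 180, 133 and 160 there unused, and the MITF MP, 36 h and 72 h lists 210, 1494 and 168. The shares above thus describe listed peaks only, and how far the unused numbers set the differences was not tested. A further 5 IgG peaks lay on chr9_random (2), chr1_random, chr4_random and chrX_random. On the placed autosomes the peaks were spread thinly, with 258 peaks at 0.108 per Mb (interval 0.0950 to 0.122). Chromosome 14 had the lowest density, 0.0493 per Mb (6 peaks, interval 0.0181 to 0.107), and chromosome 16 the highest, 0.211 per Mb (20 peaks, interval 0.129 to 0.325). As a share of all 349 IgG peaks, chromosome 16 exceeded its share of PU.1 MP peaks by an interval of -0.113 to 4.84 points, which includes 0. The 349 include the 78 peaks on _random sequences, which lowers the share of every placed chromosome.

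Mitochondrial DNA gave 2 IgG peaks and none in the other 6 lists. One, chrM:13337-13511 (25 tags), lies in mt-Nd5, a subunit gene of respiratory complex I. The other, chrM:16068-16242 (29 tags), lies in no annotated gene, near the end of the circular genome.

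**Figure D3:**
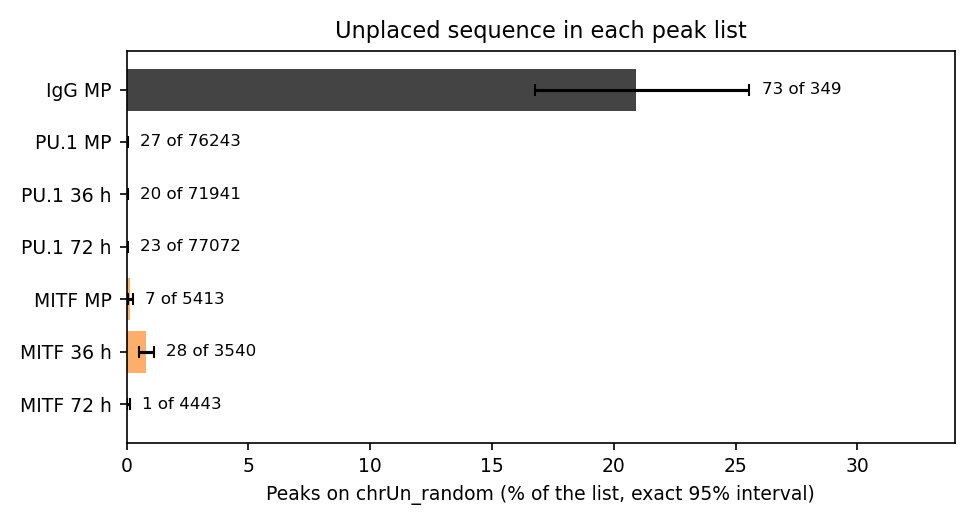
Percent of the peaks of each of the 7 lists that lie on chrUn_random, with exact 95% intervals and the counts beside each bar. The IgG bar stands at 20.9%, and no PU.1 or MITF bar passes 0.791%. Peak numbers that are missing from the lists are not counted.

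Most of the clustered IgG peaks were on unplaced sequence. With gaps of at most 10 kb, 106 peaks (30.4%) formed 29 clusters, and 72 of these peaks were on _random sequences. On placed chromosomes and chrM 34 of 271 peaks (12.5%) were clustered, against 74.8% of the placed PU.1 MP peaks and 19.8% of those of MITF MP. With gaps of at most 1 kb the placed shares were 7.75%, 19.2% and 2.54%. These shares depend on how many peaks a list holds. The 5 largest clusters were all on chrUn_random. The largest spanned 33578 bp (chrUn_random:4737834-4771412) and held 11 peaks of 13 to 39 tags, 260 tags in all. The next, chrUn_random:5872907-5900293 and chrUn_random:3549504-3581326, held 8 peaks each, with 146 and 144 tags. The other two, chrUn_random:5238939-5262972 and chrUn_random:3907154-3926799, held 6 peaks each, and the first of these contained the 112-tag peak chrUn_random-3 while the 6 peaks of the second held 20 to 27 tags. Among placed clusters the largest were of 4 peaks, at chr2:181652291-181667252 near the end of chromosome 2 (55 tags) and at chr11:3000381-3002882 (52 tags).

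IgG peaks were more frequent near chromosome ends than the peaks of the other lists were. Of 269 peaks on chromosomes 1 to 19, X and Y, 31 (11.5%, interval 7.97 to 15.96%) lay within 500 kb of the first or last assembled base, against 0.880% of PU.1 MP peaks (difference 10.6 points, interval 7.36 to 15.01) and 1.26% of MITF MP peaks. Near the first base, the centromeric end of mouse chromosomes, lay 21 of the 31.

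IgG peaks lay farther from genes than PU.1 peaks did. Within 1 kb of a TSS were 24 of 269 (8.92%, interval 5.80 to 13.0%), against 14.4% of PU.1 MP peaks (difference -5.48 points, interval -8.34 to -1.46) and 11.5% of MITF MP peaks (interval of the difference -5.54 to 1.54, which includes 0). Over 100 kb away were 17.5%, against 6.37% and 5.83%. Among IgG peaks of at least 2 times the lowest score, 13.1% were within 1 kb, near the 14.4% of all PU.1 MP peaks. In that setting 18.0% were over 100 kb away. With protein-coding genes only, 3.72% of IgG peaks and 13.0% of PU.1 MP peaks were within 1 kb. Introns held 42.0% of IgG peaks and 50.9% of PU.1 MP peaks (difference -8.92 points, interval -14.7 to -2.94), and intergenic sequence 51.3% and 42.4%. Exons held 6.69% and 6.66%. Of the peaks within 1 kb of a TSS, the highest 4 were the family A peaks in or beside Gm10801, Gm10800, Gm10722 and Gm10717. The next 6 held 10 to 36 tags and lay at the pseudogene AY036118, at 3 misc_RNA genes, at a snoRNA gene and at a microRNA gene within Cdk8. The 6 peaks outside family A that lay within 1 kb of a TSS of a protein-coding gene held 7 to 9 tags, such as those at Pex11g, a peroxisome division gene (9 tags), Trpv4, a calcium channel gene (8 tags), and Aars, the alanyl-tRNA synthetase gene (7 tags).

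The authors' nearest RefSeq transcript repeated for the unplaced peaks and was mostly unique otherwise. The list names 251 transcripts for 347 peaks, of which 229 were named once and 6 were named by 3 or more peaks. NM_009268 was named by 59 peaks and Ulbp1, which encodes a ligand of the activating receptor NKG2D, by 14, all on chrUn_random. The others were the transcript at the start of chromosome 11 near Pisd-ps1 (4 peaks), NR_046233 (3), Vmn1r2, a vomeronasal receptor gene (3), and Csf2ra, a subunit gene of the GM-CSF receptor (3 peaks of 7 or 8 tags at the end of chromosome 19).

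IgG peaks lay near 2 genes of a list of osteoclast and myeloid genes. Of 20 listed genes of osteoclasts and myeloid cells, 19 were found by symbol in the GENCODE annotation. Spi1, which encodes PU.1, was not found, so no distance was measured for it. Of the 19, 17 had no IgG peak within 100 kb of a TSS. Among these were Ctsk and Acp5, which encode enzymes of bone resorption, and Nfatc1 and Fos, transcription factors of osteoclast formation. The other 2 of 19 stand beside 2.28% of all 22225 protein-coding genes with an IgG peak at that distance. Mitf had 2, chr6-12 in an exon (9 tags, interval 4.11 to 17.1) and chr6-16 in an intron (7 tags). Tnfrsf11a, which encodes the RANKL receptor RANK, had 1 in an exon, chr1-14 (7 tags). The PU.1 MP peak nearest to chr6-12 was 1751 bp away and that nearest to chr1-14 was 13445 bp away. Gene families were counted by the authors' nearest transcript, which has a matched symbol for 262 of the 349 peaks. Vomeronasal receptor genes were nearest to 5 IgG peaks (1.43%, against 0.0472% of PU.1 MP peaks). These lie in only 2 places, 3 with Vmn1r2 nearest and 2 with Vmn1r238 nearest, and not close to the genes. The 3 were 13516 to 15029 bp from the nearest GENCODE TSS, that of Vmn1r-ps2. The 2 were 117594 and 118881 bp from the TSS of Vmn1r238. Olfactory receptor genes were nearest to 3 (0.860% against 0.277%, interval of the difference 0.0146 to 2.22). For 2 of these, Olfr161 was named, but they lie over 100 kb from any GENCODE TSS. Zfp genes were nearest to 5 (1.43% against 1.22%, interval of the difference -0.609 to 2.09) and microRNA genes to 8 (2.29% against 1.30%, interval of the difference -0.134 to 3.16). By the symbol of the nearest GENCODE gene the counts were 6 vomeronasal, 0 olfactory, 3 Zfp and 3 microRNA peaks. The olfactory count thus depends on the annotation. No peak with a symbol was nearest to a histone, Speer, immunoglobulin or T cell receptor, Mup, Rnu or Snord, Sfi1, Mid1, Erdr1 or ribosomal RNA gene. By GENCODE, however, 2 peaks lay in Mid1, a ubiquitin ligase gene, chrX-4 in an exon (18 tags) and chrX-15 in an intron (7 tags). NR_046233 (3 peaks) and NM_009268 (59 peaks) have no matched symbol either and were not sorted into any of these families. The absence of ribosomal RNA genes from the count therefore does not cover their peaks.

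Of the 349 IgG peaks, 9 overlapped a PU.1 or MITF peak. By at least 1 bp, 4 IgG peaks overlapped each of the PU.1 MP, PU.1 36 h and PU.1 72 h lists (1.15%, interval 0.313 to 2.91%), 1 overlapped MITF MP (0.287%), 7 overlapped MITF 36 h (2.01%, interval 0.810 to 4.09%) and 0 of 349 overlapped MITF 72 h, which allows a share of up to 0.860% by the limit of 3 counts and up to 1.05% by the exact interval. As shares of the other lists these are 0.00525% of PU.1 MP peaks, 0.0185% of MITF MP peaks and 0.198% of MITF 36 h peaks. The other 340 overlapped none. The share of the genome that each list covers was not measured, so these counts cannot be called high or low. The lists also differ in size, from 3540 peaks (MITF 36 h) to 77072 (PU.1 72 h). The highest of the 9 had 23 tags, and 47 IgG peaks were higher.

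The 4 placed peaks that overlapped PU.1 at 2 or 3 time points are shown on the plus strand, at chr17:39980230-39980404, chr11:108873203-108873377, chr16:35981737-35981911 and chr5:147072663-147072837, with GGAA or TTCC in capitals. None belonged to a family.

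chr17-3: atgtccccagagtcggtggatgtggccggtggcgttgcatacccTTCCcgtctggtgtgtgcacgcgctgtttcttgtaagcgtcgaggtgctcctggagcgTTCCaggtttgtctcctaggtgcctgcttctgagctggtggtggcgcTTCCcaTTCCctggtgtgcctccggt
chr11-8: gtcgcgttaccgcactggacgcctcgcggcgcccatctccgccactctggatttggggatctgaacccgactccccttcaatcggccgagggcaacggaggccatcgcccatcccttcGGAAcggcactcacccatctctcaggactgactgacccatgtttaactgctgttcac
chr16-11: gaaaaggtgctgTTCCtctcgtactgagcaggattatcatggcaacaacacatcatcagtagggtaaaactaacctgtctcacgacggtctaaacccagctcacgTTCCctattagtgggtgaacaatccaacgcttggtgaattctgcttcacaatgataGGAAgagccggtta
chr5-8: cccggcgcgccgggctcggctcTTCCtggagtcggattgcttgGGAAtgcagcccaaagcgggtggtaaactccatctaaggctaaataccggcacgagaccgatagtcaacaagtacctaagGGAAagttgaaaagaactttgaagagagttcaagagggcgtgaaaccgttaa

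The core letters occur 4 times in chr17-3, once in chr11-8 and 3 times each in chr16-11 and chr5-8. A match is a description and not a site. GGAA on either strand was found in the central 151 bases of 76% of IgG peaks, 99% of PU.1 MP peaks and 99.3% of MITF MP peaks. From general knowledge, much of chr11-8, chr16-11 and chr5-8 reads as large-subunit ribosomal RNA, but no ribosomal reference was used here and no script matched it. Whether chr17-3 is also ribosomal was not tested. Its nearest transcript, NR_046233, has no matched symbol, so chr17-3 should not be read as a non-ribosomal overlap. Elsewhere in the genome chr16-11 had 14 partial matches on 9 chromosomes, chr5-8 had 9, chr17-3 had 5 and chr11-8 had 1.

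At chr17-3, with 23 IgG tags and a score of 73.7, the PU.1 peaks held 147 (MP), 230 (36 h) and 192 tags (72 h). Their scores were 3.402 times (interval 2.18 to 5.54), 4.61 times and 3.82 times that of IgG. The MITF 36 h peak there, 824 bp wide, held 985 tags and was the second highest of its list. It shared 12 bp with the much narrower IgG peak, so no ratio is given.

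The same locus, nearest to NR_046233, held 3 IgG peaks of 23, 22 and 36 tags within 4800 bp, none of which is in a GENCODE gene. It held 1 peak in each PU.1 list, 5 peaks in the MITF 36 h list (32 to 1040 tags, the highest peak of that list included) and none in the MITF MP and MITF 72 h lists.

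At chr11-8 (22 tags), 4325 bp from the TSS of Gm11668 and nearest to Axin2, a regulator of Wnt signaling, the PU.1 peaks held 59, 110 and 83 tags. The PU.1 MP score was 1.43 times that of IgG (interval 0.862 to 2.45, which includes 1), and those at 36 and 72 h were 2.31 times (1.45 to 3.83) and 1.73 times (1.07 to 2.91). At chr16-11 (8 tags), in an exon of Gm15564 within Kpna1, a nuclear import receptor gene, the PU.1 peaks held 36, 39 and 46 tags, 2.40 times (1.09 to 5.96), 2.25 times and 2.63 times the IgG score. At chr5-8 (10 tags), in an intron of Cdk8, a Mediator kinase gene, PU.1 36 h held 43 tags and PU.1 72 h 31, and their intervals (0.981 to 4.43 and 0.679 to 3.25 times) include 1. The MITF 36 h peak at chr5-8 held 14 tags.

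At chr17-9 (7 tags), in Pisd-ps2, the PU.1 MP and MITF MP peaks held 9 and 16 tags, with scores of 0.684 times (interval 0.227 to 2.16) and 0.741 times (0.288 to 2.13) that of IgG. The MITF 36 h peak there, 200 bp wide, held 63 tags. The remaining 4 overlaps were with MITF 36 h only. At chr3-6 (15 tags), nearest to Gm6194, MITF 36 h held 64 tags over 208 bp. On chrUn_random, the MITF 36 h peaks at chrUn_random-99 (11 IgG tags), chrUn_random-133 (8) and chrUn_random-36 (22) held 35, 13 and 11 tags and shared only 9, 7 and 1 bp with the IgG peaks.

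The ratios above compare peaks of 150 or 190 bp with IgG peaks that share from 34 bp to all of their width with them, so the tags come from regions that coincide only in part. Whether the PU.1 and MITF peaks were called against the IgG library is not given in the sources used here, so how far peak calling set the number of overlaps was not tested.

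**Figure D4:**
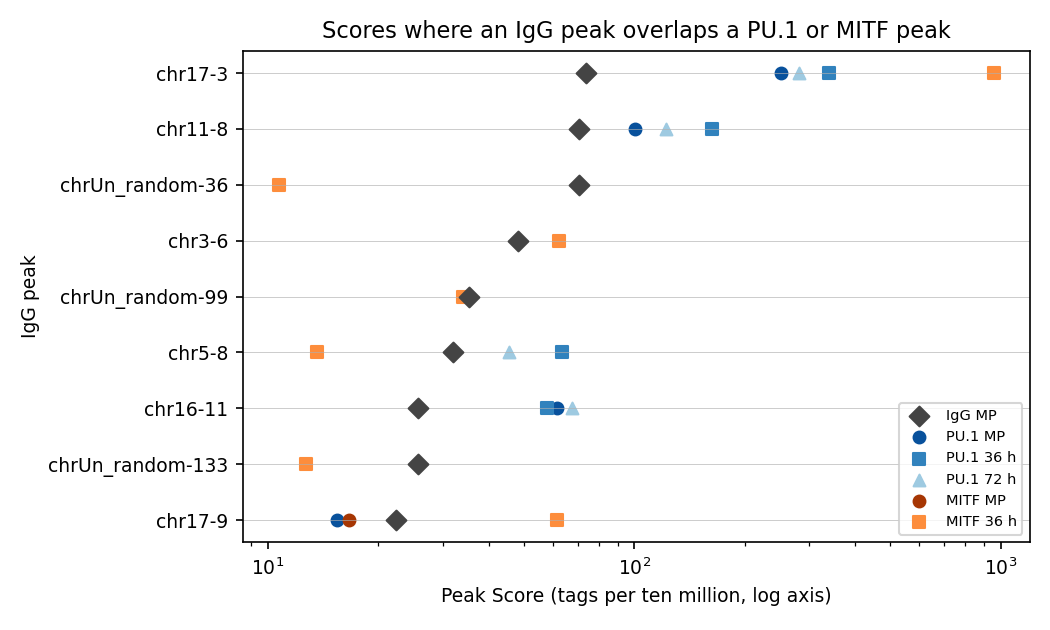
Scores (tags per 10000000, log axis) at the 9 IgG peaks that overlap a PU.1 or MITF peak, with diamonds for IgG MP and other symbols for the overlapping peaks of each list. The PU.1 points lie right of the diamond at chr17-3, chr11-8, chr16-11 and chr5-8, and the MITF 36 h points range from 10.7 at chrUn_random-36 to 958.8 at chr17-3.

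Counts within 1000 bp, which include the overlapping peaks, were larger. PU.1 MP had a peak within 1000 bp of 26 IgG peaks (7.45%), PU.1 36 h of 26 and PU.1 72 h of 28. The counts were 6 with MITF MP, 36 with MITF 36 h and 10 with MITF 72 h. All 26 near PU.1 MP were on placed chromosomes and none was of family A. Of the 36 near MITF 36 h, 17 were on chrUn_random. As for the overlaps, the share of the genome at such a distance from each list was not measured.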

How the data were processed

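Each of the 7 deposited lists holds 1 score per peak. Per the labels, the authors processed the reads with CASAVA 1.8, Bowtie2 and HOMER on mm9. Their peak settings, read filters and use of the IgG library in peak calling are not given in the sources used here, and the deposited score is taken as tags per 10000000, HOMER's default scale. Reads at repeated sequence may be kept or dropped by such filters. The nearest RefSeq transcript that the authors list was matched here to symbols (262 of 349 peaks).

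Scores were divided by the value of 1 tag. Start and end were read as 1-based. Sequence and the GENCODE annotation of mm9 covered 271 and 269 IgG peaks. The genome used has no lower-case masking, so the planned repeat-masked share was not measured. Words of 31 bases were counted on both strands of the whole genome. A tandem repeat was sought as the shift of 1 to 400 bases at which the surrounding 2000 bases matched themselves best. Families are groups joined by blastn matches (BLAST 2.17.0, E of 1e-10, at least 50 bp), so 2 members need not match each other. Python 3.11.15, numpy 2.4.6 and scipy 1.17.1 were used. Shares have exact Clopper-Pearson intervals, differences Newcombe intervals, tags exact Poisson intervals and ratios of tags exact binomial ones. With 1 library per condition no test between conditions was made. The functions were tested on simulated data. Alternatives were another overlap rule, cluster gap, word length or gene set, a score of at least 2 times the lowest, and 1 peak per cluster. Named peaks were the 10 highest, all that overlap a PU.1 or MITF peak, the 5 largest clusters, transcripts named by 3 or more peaks, the highest within 1 kb of a TSS and those at listed genes. Promoter genes named beyond the highest were chosen after their values were seen. Members and gene lists were chosen with earlier results of these data known. Sequences of family C are not reported here.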

Additional observations from a re-analysis of the deposited data

How the results depend on the processing

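With a score of at least 2 times the lowest, 112 of the 349 peaks remained, 59 were clustered, 40.2% lay on chrUn_random, introns held 29.5% and intergenic sequence 62.3%, 13.1% lay within 1 kb of a TSS and in 12.7% more than 50% of the words were repeated. In that setting 2 peaks overlapped each PU.1 list, 0 MITF MP and 2 MITF 36 h. With 1 peak per cluster, 6.25% lay on chrUn_random and 2 peaks overlapped MITF 36 h. With centers within 100 bp or a reciprocal overlap of 50%, the overlaps were 2 with each PU.1 list, 0 with MITF MP and 1 with MITF 36 h. With edges within 1000 bp they were 26, 26 and 28 with PU.1 MP, 36 h and 72 h, and 6, 36 and 10 with MITF MP, 36 h and 72 h. Gaps of 1 kb left 43 clustered peaks. With protein-coding genes only, 3.72% lay within 1 kb of a TSS and 29.7% over 100 kb away. With words of 24 bases, more than 50% of them were repeated in 16.97% of IgG peaks. The cause of these changes was not tested. The other 35 of 69 values stayed within 1.5 times or within the interval of the value reported. For median GC content the range was instead 1 standard deviation of GC content among IgG peaks. That is the spread of single peaks and not an interval of the median, so it is a loose limit. The central 151 bases were added as a setting after the data were seen. Each library stands alone, so no difference between conditions can be told apart from one between libraries.

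No paired analysis was possible because each condition has 1 library.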

Other observations

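Peak names carry a running number for each chromosome, and some numbers do not appear in the lists. In the IgG list the highest numbers add up to 583 for 349 peaks, which leaves 234 numbers unused. Of these, 82 are on chrUn_random, 74 on chromosome 11 and 35 on chromosome 9, together 191. In the MITF 36 h list 10050 numbers are unused for 3540 peaks, 2846 of them on chromosome 11 and 1494 on chrUn_random. The other lists leave from 1063 (MITF MP and MITF 72 h) to 10893 (PU.1 36 h) unused. What removed the missing numbers is not given in the sources used here. The counts of IgG peaks on chrUn_random and on chromosomes 9 and 11 thus describe the deposited list and not every numbered peak. The same holds for the PU.1 and MITF counts on chrUn_random that are set beside them.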
